A study of Mus musculus with 45 samples.

Results

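The miR-34 and miR-449 family was followed in the small RNA of mouse alveolar macrophages (AM), the resident phagocytes of the lung air spaces, after ozone (O3) or filtered air (FA). The 6 members, chosen by name among the 476 miRNAs listed in the 6 deposited tables, were mmu-mir-34a-5p, mmu-mir-34b-5p, mmu-mir-34b-3p, mmu-mir-34c-5p, mmu-mir-34c-3p and mmu-mir-449a-5p, written without the prefix for mouse from here on. Of these, miR-34a-5p, miR-34b-3p and miR-34c-5p were in all 6 tables, miR-34c-3p in 5, miR-449a-5p in 3 and miR-34b-5p in 1.

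The study asked how sex and the lung's surfactant protein A (SP-A) variants bear on the AM miRNAs after O3. It used 45 mice, 21 males and 24 females aged 12 weeks, which inhaled FA or O3 for 3 h and were lavaged after 18 h of recovery. The SP-A2 mice were humanized transgenics with the 1A0 variant, the co-ex mice carried both SP-A1 and SP-A2 (6A2/1A0), and the knockout (KO) mice had no SP-A. Both transgenic lines were derived from SP-A KO mice of the C57BL/6J strain, so mouse SP-A was missing in all groups, and no mouse with its own SP-A was included. There were 3 SP-A2 males after FA and 3 after O3, 4 co-ex males after FA and 3 after O3, and 4 mice in each of the other 8 groups. The promoter that drives the transgenes is not given in the sources used here.

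Each miR-34 and miR-449 precursor yields a 5p and a 3p mature strand, and a strand recognizes mRNAs mainly through its seed, the short stretch near its 5′ end. The family is known as regulated by p53, and Mir34a, a direct transcriptional target of p53, is expressed in many tissues. Mir34b and Mir34c are made from 1 shared transcript and, with the Mir449 cluster, are abundant in airway multiciliated cells, where the family promotes the formation of motile cilia.

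The mature sequences are shown because they divide the members that have one here into those that share a seed. Of the 6 members, 5 were matched in RefSeq (GRCm38.p6), and miR-34c-5p, which had no sequence there, is given by name. Its seed was therefore not compared, and the counts of seeds below do not cover it. Capitals mark the seed, bases 2 to 8, and all are written 5′ to 3′.
miR-34a-5p: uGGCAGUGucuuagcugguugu
miR-34b-5p: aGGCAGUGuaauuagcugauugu
miR-449a-5p: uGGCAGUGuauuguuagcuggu
miR-34b-3p: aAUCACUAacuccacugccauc
miR-34c-3p: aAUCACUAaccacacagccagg
The seed GGCAGUG was carried by 4 of the 1679 mature mouse miRNAs in that table (0.238%), of which the tables listed miR-34a-5p, miR-34b-5p and miR-449a-5p, and miR-449c-5p was the other. The seed AUCACUA was carried by miR-34b-3p and miR-34c-3p alone among them (0.119%), and these were identical at 17 of 22 positions. miR-34a-5p and miR-449a-5p were identical at 15 of 22 positions.

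Mir34b and Mir34c lie 451 bases apart on chromosome 9 of GRCm38 on the minus strand, from 51103562 to 51103645 and from 51103034 to 51103110. Both lie within an intron of Btg4, a protein-coding gene of the opposite strand. Mir34a lies on chromosome 4 from 150068454 to 150068555, and overlaps an exon of the transcript Gm37795. Mir449a lies on chromosome 13 from 113037534 to 113037624, in an intron of Cdc20b.

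The deposited value of a miRNA in a mouse is its reads divided by a factor of that mouse, called the normalized value here, and each genotype and sex was scaled in its own table. Within each mouse all values (100%) could be divided by 1 step into whole numbers, which gave back the reads. A mouse had from 137965 to 2884013 reads on listed miRNAs (median 766213). Each mouse was 1 replicate, and no pair of mice within a group differed by as little as counting error gives (lowest chi-square per degree of freedom 53.8 over 63 pairs). Of the 206 miRNAs in all tables, a mouse had between 0 and 72 at 0 reads (median 7). More than 20 were at 0 in 9 of 23 FA mice and 4 of 22 O3 mice. The 8 miRNAs listed as typical of macrophages took a median of 10.6% of reads after FA (range 0.986 to 24.5%) and 7.07% after O3 (1.30 to 22.0%). miR-223-3p, miR-146b-5p and miR-21a-5p of that list were above 0 in all mice, and miR-142a-3p was at 0 in 8 of 45.

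Levels across tables are given as CPM, the reads of a miRNA scaled to a common total of reads on listed miRNAs. miR-34b-3p was the most abundant member, with a median of 1295 CPM over 45 mice and a range from 0 to 24143 CPM. miR-34a-5p had a median of 587 CPM (0 to 1261), miR-34c-5p of 182 CPM (0 to 4408), miR-34c-3p of 64.1 CPM (0 to 1369, 38 mice) and miR-449a-5p of 17.9 CPM (0 to 167, 22 mice). By mean value, miR-34b-3p ranked between 57 and 113 after FA and between 26 and 51 after O3 among the 234 to 448 miRNAs of a table. The 6 members together took a median of 0.171% of reads after FA (range 0.0419 to 0.583%) and 0.327% after O3 (0.0507 to 2.85%). These are shares of the reads on listed miRNAs in the lavage cells, and the tables list different numbers of miRNAs. More cells of a type and more RNA per cell cannot be told apart in such samples.

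The strand that prevailed differed between the paired precursors. The hairpin of Mir34b is printed with both mature strands in capitals, because nearly all of its reads came from the 3p strand.
Mir34b: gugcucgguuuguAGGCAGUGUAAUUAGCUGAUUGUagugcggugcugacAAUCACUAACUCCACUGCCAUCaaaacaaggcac
miR-34b-5p was listed for co-ex females only, where it had 6 reads in all against 17451 of miR-34b-3p in the 7 mice with reads on either strand. For Mir34c the 5p strand prevailed, with a median of 76.3% of the reads of both strands over 37 mice and more than 50% in 31 of them. This share was 83.7% at the median after FA (18 mice) and 72.3% after O3 (19 mice). Ligation and amplification can favour 1 strand over another, and their part in these shares was not tested.

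Across all tables, the miR-34b/c strands rose after O3 and miR-34a-5p and miR-449a-5p did not pass the test. In a limma model of log2(normalized value + 1) with the table as a term, 54 of 338 miRNAs were called at an FDR of 0.1 (16%), with 47 higher (13.9%) and 7 lower (2.07%) after O3. Of the 5 members tested, 3 were called, all higher: miR-34b-3p, miR-34c-3p and miR-34c-5p. The median change of the 5 was 2.41 on the log2 scale, against 0.17 for all 338 miRNAs. The split of calls and this centre differed between fits. After median-ratio rescaling the median of all miRNAs was 0.06, with 44 higher and 14 lower. For the 206 miRNAs of all tables, the limma median was 0.18 with 42 higher and 11 lower, and with edgeR on recovered reads it was -0.10 with 28 higher and 15 lower. The 3 members were called and higher after rescaling and with edgeR, where miR-34c-3p was fitted on the miRNAs shared by its 5 tables.

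**Figure D1:**
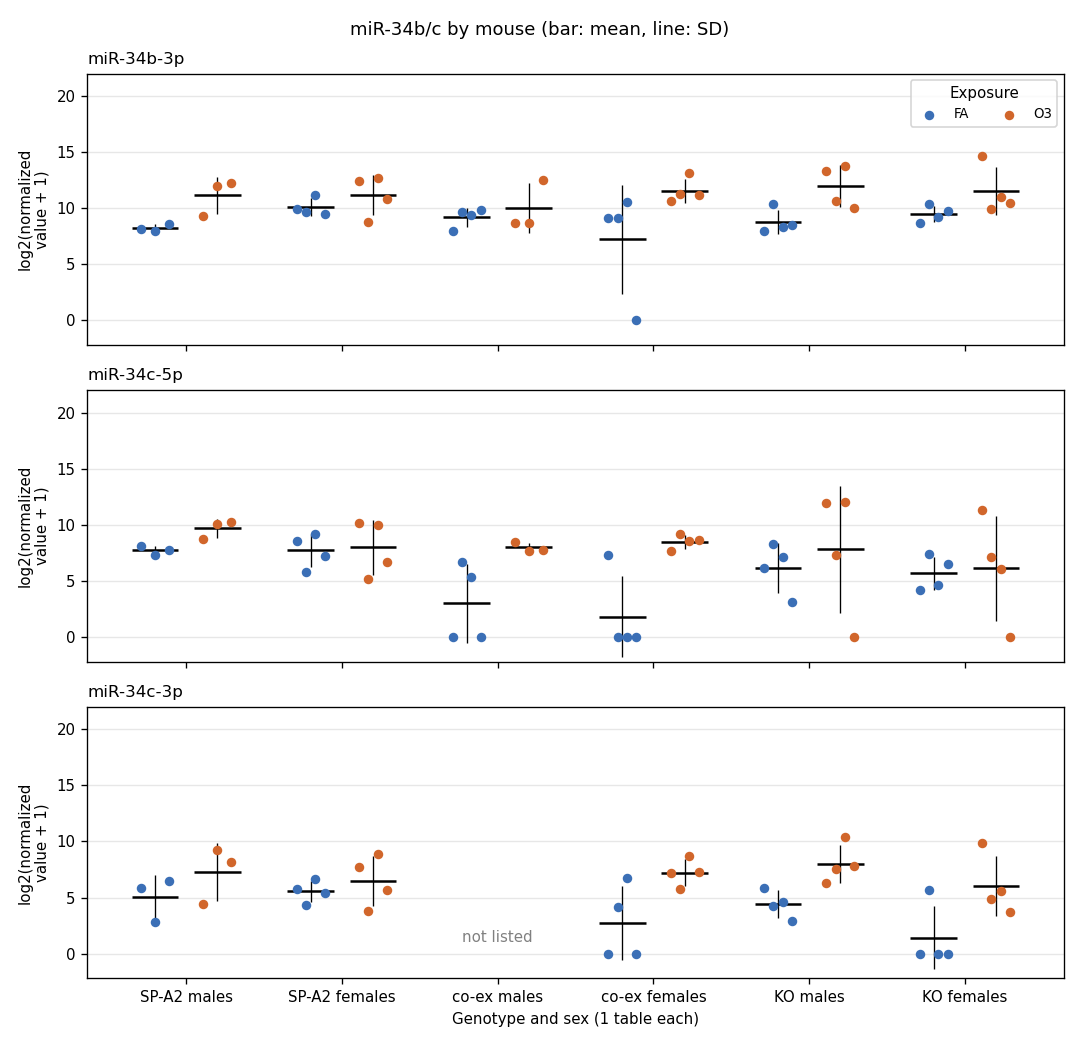
Normalized values of miR-34b-3p, miR-34c-5p and miR-34c-3p on a log2(value + 1) scale, with 1 point per mouse, FA in blue and O3 in orange, for each genotype and sex; horizontal bars are means and vertical lines SD (n = 3 or 4). The highest O3 mouse of each table lies above every FA mouse of that table for all 3 strands, while several O3 mice lie within the range of the FA mice.

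miR-34b-3p, which shares its seed with miR-34c-3p, changed by a log2 value of 2.41 over 45 mice (SE 0.55, 95% confidence interval 1.30 to 3.51, limma adjusted p = 0.00118), with a higher mean after O3 in 6 of 6 tables. In SP-A2 males its normalized value was 289, 242 and 379 after FA and 616, 4032 and 4801 after O3. The groups did not overlap, which was so for 12.7% of miRNAs in that table (O3 above FA), and 1 of the O3 mice was well below the other two. The means were 303 ± 69.8 (SD, n = 3) and 3149.9 ± 2228 (n = 3), with a log2 change of 2.93 that did not pass the FDR in limma (SE 0.70, adjusted p = 0.118), where 0.67% of the 448 miRNAs did. Here edgeR, which called 1.12% of miRNAs of the table, gave an adjusted p of 0.0537, and DESeq2, which called 13.4%, one of 5.1e-05.

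In SP-A2 females miR-34b-3p was at 1002, 816, 2376 and 716 after FA and at 5625, 446, 6562 and 1766 after O3. A pair of O3 mice lay above all FA mice and 1 lay below all of them. The log2 change was 1.10 (SE 0.74, limma adjusted p = 0.553), in a table where 1.07% of miRNAs were called. In co-ex males the values were 247, 792, 657 and 921 after FA and 419, 411 and 5993 after O3, so that a single O3 mouse was high. The log2 change there was 0.78 (SE 1.02, limma adjusted p = 0.941), and it was -0.50 without O3 replicate 3, the high mouse. In that table limma called 0 of 234 miRNAs (0%), with 8 at an unadjusted p below 0.05. Of its miRNAs edgeR called 0% and DESeq2 0.957%, with 0 members under either.

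In co-ex females miR-34b-3p was at 573, 569.7, 1521 and 0 after FA and at 1601, 2530.1, 8881 and 2337 after O3. All O3 mice were above all FA mice, which was so for 5.86% of miRNAs of the table. The FA mouse at 0 had 625825 reads and 55 of the 206 shared miRNAs at 0. The log2 change was 4.34 (SE 1.49, limma adjusted p = 0.210, with 1.38% of miRNAs called in that table), and 1.93 without that mouse, the lowest value when each was left out. It was 2.28 with edgeR on recovered reads.

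In KO males miR-34b-3p was at 247, 1308, 316 and 361 after FA and at 10287, 1634, 14150.4 and 1053 after O3. A pair of O3 mice stood far above the rest, and the lowest O3 mouse lay under the highest FA mouse. Means were 558 ± 502 (SD, n = 4) after FA and 6781 ± 6478 (n = 4) after O3. The log2 change of 3.18 (SE 0.84) passed the FDR in limma (adjusted p = 0.0538), as for 5.18% of the 328 miRNAs, and was the 1 call among the members within single tables. When each of the 8 mice was omitted in turn, 3 fits kept this call, and it was lost without FA replicate 1, 3 or 4 or without O3 replicate 1 or 3 (highest limma adjusted p = 0.183, without O3 replicate 3). It was also called with edgeR (adjusted p = 0.0722) and DESeq2 (adjusted p = 0.00353), which called 4.88% and 15.2% of the miRNAs of this table.

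In KO females miR-34b-3p was at 398, 1311, 584 and 863 after FA and at 25502, 949, 2032 and 1405 after O3. O3 replicate 1 held the highest value of any mouse, and 3 of 4 O3 mice were above all FA mice. The log2 change was 2.01 (SE 0.81, limma adjusted p = 0.628), and 0.96 without O3 replicate 1. In that table limma called 0 of 287 miRNAs (0%), with 22 at an unadjusted p below 0.05. There edgeR called 0% of miRNAs, and DESeq2 called 1.47% but gave an adjusted p for miR-34a-5p alone of the members, which was not called.

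miR-34c-5p, the main strand of Mir34c, changed by a log2 value of 2.64 over 45 mice (SE 0.86, 95% confidence interval 0.92 to 4.37, limma adjusted p = 0.0326), with a positive change in 6 of 6 tables (5 of 6 with a pseudocount of 0.1). In SP-A2 males it was at 268, 161 and 217 after FA and at 417, 1107 and 1226 after O3. The groups did not overlap, and the log2 change was 1.97 (SE 0.51, limma adjusted p = 0.118). In co-ex males it was at 0, 105, 39.4 and 0 after FA and at 357, 204 and 218 after O3. All O3 mice were above all FA mice, as for 6.41% of miRNAs of that table, and the log2 change of 4.96 had an SE of 2.96 (limma adjusted p = 0.881). In co-ex females it was at 154, 0, 0 and 0 after FA and at 203, 572, 372 and 396 after O3. The groups again did not overlap, and the log2 change was 6.68 (SE 2.21, limma adjusted p = 0.178). With mice at 0 the size of such a change depended on the pseudocount and model, and this one was 9.17 with a pseudocount of 0.1, 4.21 with 10 and 3.40 with edgeR on recovered reads, while that in co-ex males was 6.63, 3.25 and 2.69. The FA mice at 0 had 18 to 72 of the shared miRNAs at 0. In those mice 3 reads, taken as an upper limit for a count of 0, would be between 2.31 and 21.7 CPM. This limit covers counting error only.

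The call for miR-34c-5p was lost when either table of co-ex mice was left out, and also in males only and in females only. These fits had fewer mice. The call was kept in a fit without the mice at 0 for many shared miRNAs, given below, which held no co-ex male after FA. Without the table of co-ex males the log2 change of miR-34c-5p over the other tables was 2.23 (limma adjusted p = 0.124), and without co-ex females it was 1.77 (adjusted p = 0.242). In SP-A2 females it was at 387, 55.2, 584 and 151 after FA and at 1143, 34.5, 1008 and 99.5 after O3, with a pair of mice above and a pair within or below the FA mice. In KO males it was at 69.2, 309, 135 and 7.42 after FA and at 3937, 159, 4299.7 and 0 after O3. These O3 mice ranged from 0 to the highest values of this strand, and the log2 change was 1.69 (SE 2.31, limma adjusted p = 0.734). In KO females it was at 17.7, 162, 23.9 and 89.7 after FA and at 2566, 137, 67.1 and 0 after O3, where 1 mouse was high.

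miR-34c-3p, the lesser strand of Mir34c, changed by a log2 value of 3.22 over the 38 mice of 5 tables (SE 0.74, 95% confidence interval 1.73 to 4.71, limma adjusted p = 0.00144), and was higher in 5 of 5. In KO males it was at 57.2, 18.2, 23.8 and 6.49 after FA and at 79.5, 184, 1336 and 221 after O3. The groups did not overlap, as for 6.1% of miRNAs of that table, and the log2 change was 3.60 (SE 1.30, limma adjusted p = 0.188). In KO females it was at 0, 49.1, 0 and 0 after FA and at 941, 29.1, 45.6 and 12.4 after O3. Only O3 replicate 1 was above the highest FA mouse, and the log2 change was 4.61 (SE 2.10, limma adjusted p = 0.628). In co-ex females it was at 0, 16.3, 109 and 0 after FA and at 140.3, 54.2, 406 and 152 after O3. Here 3 of 4 O3 mice were above all FA mice (log2 4.49, SE 2.25, limma adjusted p = 0.476).

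In SP-A2 males miR-34c-3p was at 57.5, 6.01 and 88.1 after FA and at 19.8, 621 and 285 after O3. The O3 mouse that was lowest for miR-34b-3p was also lowest here, and the groups overlapped. In SP-A2 females it was at 54.0, 19.3, 101 and 41.5 after FA and at 207, 12.6, 462 and 49.3 after O3. Again O3 replicates 1 and 3 were high and replicate 2 low, as for the other miR-34b/c strands of that group.

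Counted over tables, the miR-34b/c strands other than miR-34b-5p had a positive log2 change in 17 of 17 cases, from 0.27 to 6.68. These cases are not independent, since the strands were measured in the same mice. Over all miRNAs of a table, the median log2 change ran from -0.293 in KO males to 0.643 in co-ex males. The direction of 3 of the 17 cases, none of them called, turned under other settings. miR-34c-5p in KO females was -0.35 with a pseudocount of 0.1 in place of 1 and -1.28 without O3 replicate 1, miR-34c-5p in SP-A2 females was -0.45 without O3 replicate 1, and miR-34b-3p in co-ex males turned as given above. Of the 17, 8 had an unadjusted p below 0.05 in limma, as did 3.42 to 17.6% of all miRNAs of a table, and 1 was called. The groups did not overlap in 6 of these cases, and in none of those of SP-A2 females or KO females, where 3.49% and 3.14% of all miRNAs had O3 wholly above FA. When mice at 0 for more than 20 of the shared miRNAs were left out, the 3 members were called over the remaining 14 FA and 18 O3 mice (17 O3 mice for miR-34c-3p), with log2 changes of 2.36 for miR-34b-3p, 2.67 for miR-34c-5p and 2.16 for miR-34c-3p (limma adjusted p = 0.00161, 0.0488 and 0.0534). No co-ex male after FA was left in that fit, so that the contrast came from the other 5 tables. miR-34b-5p, at 0 to 3 reads in each co-ex female, was too low to compare.

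**Figure D2:**
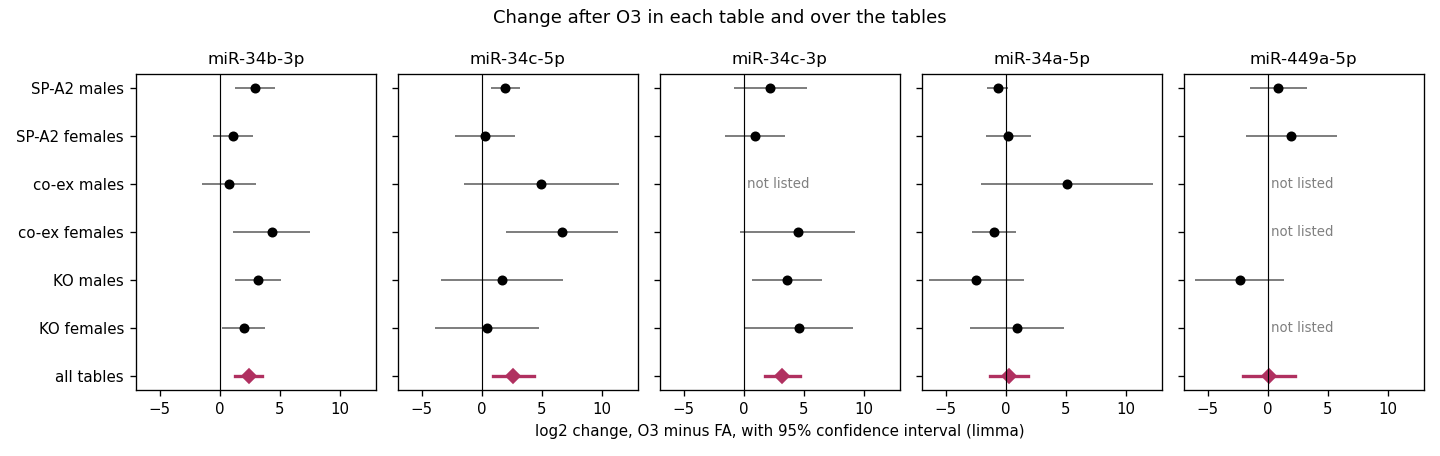
Change in log2(normalized value + 1), O3 minus FA, with its 95% confidence interval from limma, for 5 members in each genotype and sex (black) and over all tables that list the member (red). The intervals over all tables lie above 0 for miR-34b-3p, miR-34c-5p and miR-34c-3p and include 0 for miR-34a-5p and miR-449a-5p.

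miR-34a-5p, made from chromosome 4, had a log2 change of 0.27 over 45 mice (SE 0.78, 95% confidence interval -1.29 to 1.84, limma adjusted p = 0.882), positive in 3 of 6 tables. In SP-A2 males it was at 1018, 925 and 854 after FA and at 559, 754 and 461 after O3. All FA mice there were above all O3 mice, as for 9.6% of miRNAs of that table, and the log2 change of -0.68 (SE 0.37) was not called (limma adjusted p = 0.372). In co-ex males it was at 923, 0, 0 and 0 after FA and at 130.0, 116 and 429 after O3. The FA mice at 0 had 505868 to 1467848 reads and 26 to 72 of the shared miRNAs at 0, so that 3 reads would be 2.04 to 5.93 CPM, and none of the 20 most abundant shared miRNAs was at 0 in them. In KO males it was at 855, 894, 863 and 607 after FA and at 1046, 750.5, 573 and 0 after O3, with the mouse at 0 also at 0 for miR-34c-5p.

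The direction for miR-34a-5p depended on these mice and on the model. Without the table of co-ex males its log2 change was -0.60 (limma adjusted p = 0.681), and it was -0.49 (adjusted p = 0.567) without mice at 0 for over 20 shared miRNAs. With all mice kept it was -0.47 (adjusted p = 0.617) with edgeR on recovered reads and -0.07 (limma adjusted p = 0.953) with a pseudocount of 10. In SP-A2 females it was at 38.4, 658, 624 and 535 after FA and at 276, 666, 227 and 356 after O3. In co-ex females it was at 557, 745, 402 and 565 after FA and at 621, 471, 73.2 and 293 after O3. The O3 mice overlapped the FA mice in both groups of females, and in KO females as well, where the values were 366, 801, 0 and 186 after FA and 1061, 124, 264 and 18.5 after O3.

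miR-449a-5p, of the multiciliated-cell cluster in Cdc20b, had a log2 change of 0.09 over 22 mice (SE 1.05, 95% confidence interval -2.06 to 2.25, limma adjusted p = 0.977). In SP-A2 males it was at 20.9, 37.3 and 11.7 after FA and at 53.3, 92.0 and 12.3 after O3. In SP-A2 females it was at 0, 0, 109 and 50.2 after FA and at 17.2, 70.3, 15.1 and 59.3 after O3. In KO males it was at 5.68, 60.6, 12.3 and 7.42 after FA and at 0, 0, 65.7 and 0 after O3. The groups overlapped in all 3 tables, at 0 to 151 reads per mouse. The upper bound of the interval, 2.25, lay above the lower bounds of the miR-34b/c strands over all tables. Those were 1.30 for miR-34b-3p, 0.92 for miR-34c-5p and 1.73 for miR-34c-3p, each from more mice. The intervals thus overlapped and do not set miR-449a-5p apart from these strands.

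**Figure D3:**
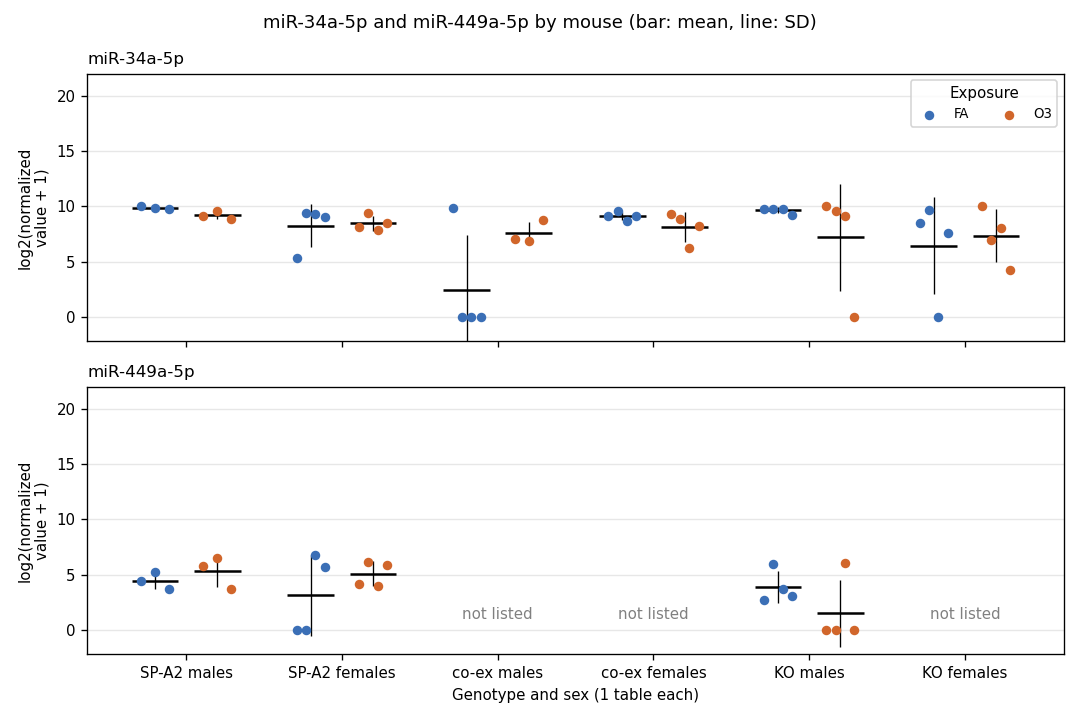
Normalized values of miR-34a-5p and miR-449a-5p on a log2(value + 1) scale, with 1 point per mouse, FA in blue and O3 in orange, for each genotype and sex; horizontal bars are means and vertical lines SD (n = 3 or 4). Most mice lie in the same range after FA and O3, and 3 of 4 co-ex males after FA are at 0 for miR-34a-5p.

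To compare members directly, the log2 ratio of a miR-34b/c strand to miR-34a-5p or miR-449a-5p in the same mouse was compared between O3 and FA within tables, a comparison chosen after the data were seen. The ratio of miR-34c-3p to miR-34a-5p was higher after O3 by 3.82 on the log2 scale (38 mice, 5 of 5 tables, two-sided permutation test with 100000 resamples, adjusted p = 0.00222 over 6 ratios). The ratio of miR-34b-3p to miR-34a-5p was higher by 2.13 (5 of 6 tables, permutation adjusted p = 0.0893) and that of miR-34c-5p by 2.37 (4 of 6 tables, permutation adjusted p = 0.0851). Both of these ratios include co-ex males, where miR-34c-3p is not listed, so they cover more tables than its ratio. In co-ex males the difference for miR-34b-3p was -4.30. Against miR-449a-5p, over 22 mice, the differences were 2.26 for miR-34b-3p (permutation adjusted p = 0.0936), 1.16 for miR-34c-5p (0.415) and 2.16 for miR-34c-3p (0.130).

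Among mice of the same group, miR-34b-3p varied together with each strand of Mir34c. Over 38 mice, with the group means removed from log2 values, miR-34b-3p and miR-34c-3p had a Pearson r of 0.62 and a Spearman rho of 0.57 (permutation within groups, adjusted p = 0.0025 and 0.0115 over 10 pairs of members), positive in 5 of 5 tables, and r was 0.58 without the 2 mice farthest from the median of miR-34b-3p. miR-34b-3p and miR-34c-5p had an r of 0.48 and a rho of 0.53 over 45 mice (permutation adjusted p = 0.0955 and 0.014), positive in 6 of 6 tables, and r was 0.62 without the 2 farthest mice. The strands of Mir34c themselves, miR-34c-5p and miR-34c-3p, had an r of 0.31 and a rho of 0.38 over 38 mice (permutation adjusted p = 0.427 and 0.149), with r from -0.53 to 0.96 within tables. The other 7 pairs had r between 0.10 and 0.33. miR-34a-5p and miR-34b-3p were at the low end, with r = 0.10 (permutation adjusted p = 0.468).

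Among 199 miRNAs that were no members, in all tables and at a mean of at least 10, the variation over 45 mice most like that of miR-34b-3p was of miR-375-3p (r = 0.73), miR-1895 (0.65) and miR-3060-5p (0.65). For miR-34c-5p these were miR-378a-3p (0.67), miR-2137 (0.62) and miR-128-3p (0.60). For miR-34a-5p they were miR-7a-5p (0.79), miR-101b-3p (0.78) and miR-21a-5p (0.74). These are descriptions over mice that share a library scale within each table, and the median r over the candidates was 0.11, 0.15 and 0.08 in the same order.

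The response to O3 was also compared over 9 pairs of tables, either males with females or 1 genotype with another. Of 35 differences in response of a member, limma's interaction test called 0. Of all miRNAs it called 0.282% between SP-A2 males and females, 0.312% between SP-A2 and KO males and 0% in the other 7 pairs. Of the 35, 4 had an unadjusted p below 0.05 (lowest limma adjusted p = 0.665). The unadjusted results were 2 for miR-34a-5p, both with co-ex males, and 2 for miR-34c-5p, both with co-ex females. miR-34c-5p changed less in SP-A2 females than in co-ex females by 6.41 on the log2 scale, as a difference of -6.41 (95% confidence interval -10.99 to -1.84, limma adjusted p = 0.833). The intervals were wide, and the log2 differences of miR-34b-3p over its 9 pairs ran from -3.56 to 2.33.

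The levels themselves were compared after the same exposure with edgeR on recovered reads, in 70 tests of a member over the 9 pairs, of which 0 were called. The lowest edgeR adjusted p was 0.254, and 1 had an unadjusted p below 0.05. Of all miRNAs, edgeR called 0.282% between SP-A2 males and females after FA and 0.282% after O3, 12.3% and 9.69% between SP-A2 and co-ex males, 0.312% and 1.88% between SP-A2 and KO males, 1.81% and 0.905% between co-ex and KO males and 0% in the other pairs. By median CPM, miR-34b-3p was highest in KO males after O3 (5965 CPM), followed by SP-A2 females (4166), SP-A2 males (3971), co-ex females (2612) and KO females (2167), all after O3. Co-ex males after O3 were last, at 325 CPM with 1 mouse at 7061 CPM. Each of the 11 pairs of neighbouring groups in this order overlapped in range. miR-34a-5p was highest in SP-A2 males after FA (1043 CPM) and lowest in co-ex males after FA (0 CPM), again with all 11 neighbouring pairs overlapping.

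Several miRNAs of other lung cells were higher in the same libraries after O3. Of 14 miRNAs listed as typical of epithelium, 13 were tested over the tables and 7 were called higher, as were 13.9% of all miRNAs. The median log2 change over the 13 was 1.04. Those called were miR-203-3p (2.46), miR-375-3p (2.28), miR-183-5p (2.07), miR-429-3p (1.97), miR-200a-3p (1.85), miR-200b-3p (1.04) and miR-200c-3p (0.69), with limma adjusted p from 0.00281 to 0.0858. Not called were miR-200b-5p (1.29), miR-200a-5p (1.04), miR-182-5p (0.97), miR-31-5p (0.59), miR-205-5p (0.10) and miR-141-3p (-0.31). The epithelial list took a median of 0.689% of reads after FA (0.108 to 1.36%) and 1.27% after O3 (0.724 to 2.68%), and miR-200b-3p and miR-200c-3p were above 0 in all mice. The miR-200 family and miR-375 are known from epithelial and endocrine cells.

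Of 13 miRNAs listed as typical of mesenchymal cells, 10 were tested and 8 were called higher, against 13.9% of all miRNAs. The median log2 change of the 10 was 2.44. Those called were miR-100-5p (3.59), miR-199b-3p (3.35), miR-143-3p (3.26), miR-145a-5p (3.09), miR-10a-5p (2.62), miR-214-3p (2.26), miR-99a-5p (1.94) and miR-125b-5p (1.81). Of these, miR-100-5p, miR-199b-3p and miR-143-3p are known from fibroblasts and smooth muscle. The summed share of the mesenchymal list was 0.425% at the median after FA (0.0831 to 0.795%) and 1.35% after O3 (0.463 to 2.65%). The endothelial miR-126a-3p, listed in 3 tables, rose by 5.47 on the log2 scale (limma adjusted p = 3.1e-04) and was at 0 in 7 of 22 mice. Of the macrophage list 0 of 8 miRNAs were called in limma over all tables, with a median log2 change of -0.14 and unadjusted p values of 0.063 or more. Within tables, miR-142a-3p was lower in SP-A2 males (log2 -3.28, limma adjusted p = 0.00435) and miR-155-5p in SP-A2 females (log2 -2.42, limma adjusted p = 0.0454). Of the erythroid and lymphoid lists 0 of 4 and 0 of 2 were called, with unadjusted p values of 0.073 and 0.206 or more. The erythroid list took a large and variable share of reads. Its median share was 3.10% after FA (0.258 to 37.0%) and 4.46% after O3 (0.136 to 35.8%). Within a table its median log2 change ran from -2.37 in SP-A2 males to 1.93 in co-ex females. The part of these cells in the change of miR-34b/c was not tested.

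**Figure D4:**
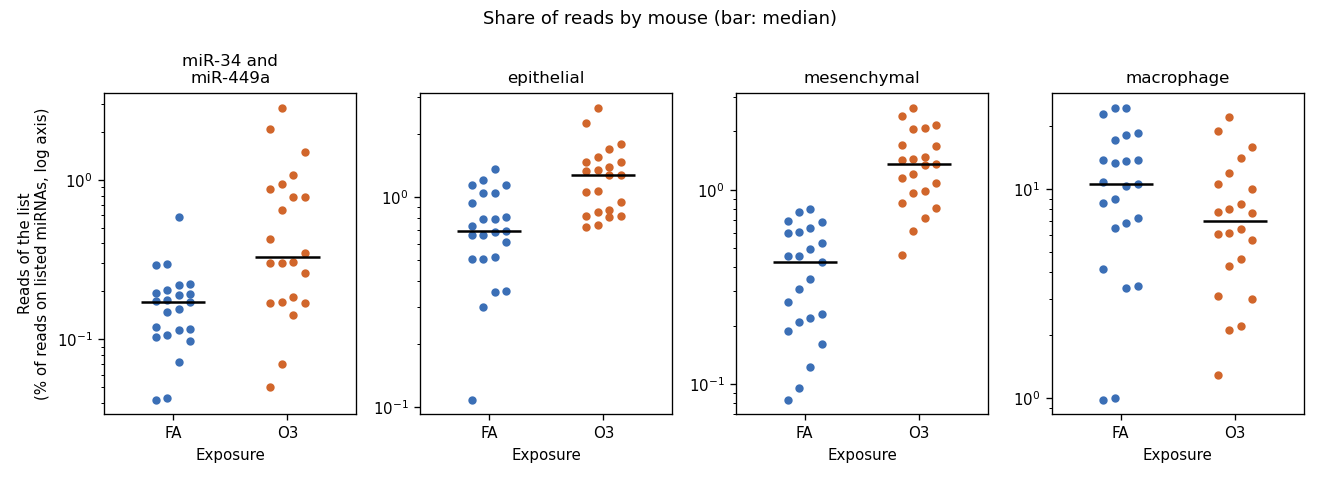
Share of the reads on listed miRNAs taken by the 6 members and by the epithelial, mesenchymal and macrophage lists, on log axes, with 1 point per mouse (23 after FA, 22 after O3) and bars at the median. The medians after O3 are above those after FA for the members (0.327% against 0.171%) and the epithelial and mesenchymal lists, and below for the macrophage list (7.07% against 10.6%).

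The mouse with the most miR-34b-3p, KO female O3 replicate 1, had 2.85% of its reads on the members and 1.48% on the epithelial list. Its share of 0.463% on the mesenchymal list was the lowest of the O3 mice, and its share of 10.5% on the macrophage list the highest of its group. The other 3 mice of its group had 0.143 to 0.348% of reads on the members and 0.724 to 1.40% on the epithelial list. In each O3 group, the mouse with the highest share on the members also had the highest share on the epithelial list. Examples were KO male replicate 3 (2.09% and 2.26%) and co-ex female replicate 3 (1.07% and 2.68%). After FA, the same mouse was also highest on both lists in every group except SP-A2 males. There replicate 1 was highest on the members and replicate 3 on the epithelial list. Whether the shares are related was not tested.

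Of the 13 other miRNAs listed as responsive to p53, 8 were tested over the tables and 3 were called higher, against 13.9% of all miRNAs. The 3 were miR-143-3p (3.26), miR-145a-5p (3.09) and miR-200c-3p (0.69). The first and second of these are also on the mesenchymal list and the other on the epithelial list. The median log2 change of the 8 was 0.17, equal to that of all 338 miRNAs to 2 decimals. Among the 5 not called were miR-192-5p and miR-194-5p, which p53 also induces and which were picked with their values in view. They had log2 changes of 0.09 and -0.48 (limma adjusted p = 0.951 and 0.767). The part of p53 in the change of the members was not tested. Of the remaining strands of the family, miR-34a-3p was listed in SP-A2 males only, with medians of 22.9 CPM after FA and 8.50 CPM after O3.

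**Figure D5:**
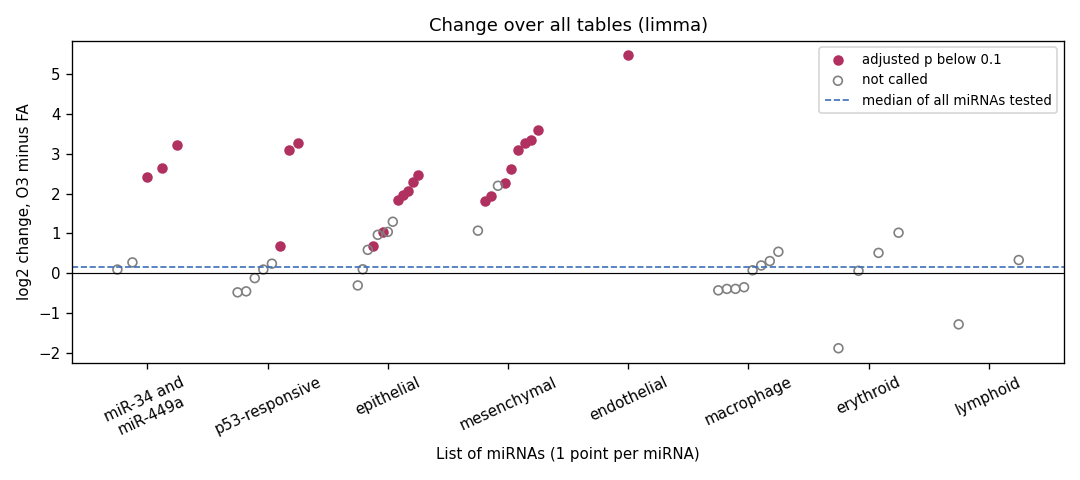
Change in log2(normalized value + 1) over all tables, O3 minus FA, for each miRNA of a list, filled where limma's adjusted p was below 0.1; the dashed line is the median of all 338 miRNAs tested. The 3 filled points of the family lie between 2.41 and 3.22, and the 8 points of the macrophage list are open and between -0.43 and 0.54.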

How the data were processed

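Small RNA libraries from lavaged AM were prepared with the NEXTflex Small RNA kit and sequenced on an Illumina HiSeq, 1 library per mouse. The 6 tables that the authors deposited, each for a genotype and sex, give a normalized signal per miRNA in every mouse, together with a p-value, a q-value and a rank of FA against O3, which were not used. The submitters' notes and methods name CASAVA, edgeR and TCC 1.14.0, while the names of the tables mention DESeq2; aligner, miRNA reference and build are not given in the sources used here. The tables, scaled separately, list only miRNAs with values in several mice, so an unlisted miRNA was treated as missing. Reads were recovered as whole multiples of a step per mouse (tolerance 1e-06); totals are sums over listed miRNAs and not the library depth.

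Groups were taken from the sample labels. O3 and FA were compared with the lmFit and trended eBayes functions of limma 3.58.1 in R 4.3.3 on the log2 of the normalized value plus 1 (a scale that understates the change of low miRNAs above 0 and can overstate it where single mice are at 0), in each table and over all tables for miRNAs in at least 3, with the Benjamini-Hochberg adjustment and an FDR of 0.1. Differences in response were tested as interactions in limma, and levels with edgeR 4.0.16 (TMM, quasi-likelihood) on recovered reads. All tests were two-sided. Alternatives were pseudocounts of 0.1 and 10, a filter on values below 10, an FDR of 0.05, median-ratio rescaling, the recovered reads tested with edgeR or with DESeq2 1.42.0, a block for the replicate number, tables or sexes left out and each mouse left out; leaving out mice at 0 for over 20 of the shared miRNAs was added with the data in view. The tests were checked on simulated data. The members, lists and alternatives were chosen with earlier results of these data known. Named miRNAs are the members, those of a list called over all tables and the 3 most like a member. Also named are the 3 of the p53-responsive and epithelial lists with the largest change. miR-192-5p, miR-194-5p and the macrophage miRNAs called within a table were named after their values were seen. So were the epithelial miRNAs not called and the miRNAs named for being at 0 or above 0 in all mice. The p-values judge a difference or a correlation against the spread between mice, and limits from 0 reads cover counting error only.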

Additional observations from a re-analysis of the deposited data

Results flagged for a closer look

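Within the groups of 4 mice, 41 sets of values of a member were tested with Dixon's criterion for 1 mouse far from the others, and 14 were set apart, 13 of them by a high value. The criterion would flag about 1 in 20 sets of normally distributed values. That rate does not apply here, since the values were not put on a log scale and sets from the same mice are not independent. Where all other mice were at 0, any value above 0 met the criterion. In 3 sets the mouse was KO female O3 replicate 1, with a normalized value of 25502 for miR-34b-3p (others at most 2032), 941 for miR-34c-3p (others at most 45.6) and 2566 for miR-34c-5p (others at most 137). KO male O3 replicate 3 stood apart for miR-34c-3p (1336) and miR-449a-5p (65.7), and KO male FA replicate 2 for miR-34b-3p (1308) and miR-449a-5p (60.6). In co-ex females, O3 replicate 3 stood apart for miR-34b-3p (8881), FA replicate 3 for miR-34c-3p (109) and FA replicate 1 for miR-34c-5p (154) and miR-34b-5p (1.54, a single read). KO female FA replicate 2 was the only mouse of its group above 0 for miR-34c-3p (49.1), as was co-ex male FA replicate 1 for miR-34a-5p (923). The low value was that of KO male FA replicate 4 for miR-34a-5p (607, others at least 855). What set these mice apart was not tested.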

How the results depend on the processing

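Over all tables, miR-34b-3p, miR-34c-3p and miR-34c-5p were called in each of the 45 fits that left out 1 mouse, with log2 changes of 1.98 to 2.57, 2.94 to 3.46 and 2.43 to 3.08. miR-34b-3p was also called in 17 of 17 other settings and miR-34c-3p in 15 of 15, and miR-34c-5p in 13 of 17. The calls of miR-34c-5p were lost without co-ex males (log2 2.23), without co-ex females (1.77), in males only (2.85, adjusted p = 0.209) and in females only (2.47, adjusted p = 0.216), each a fit with fewer mice. The miRNAs called over all tables were 20 in males only and 33 in females only, against 54.

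Within tables, the members called in SP-A2 males were 0 with limma (0.67% of all miRNAs), 1 with edgeR (1.12%) and 3 with DESeq2 (13.4%), and in KO males 1 with limma (5.18%), 0 at an FDR of 0.05 and 3 with DESeq2 (15.2%). Leaving out 1 mouse gave 0 to 2 members called for SP-A2 males (0.223 to 8.93% of all miRNAs), 0 to 2 for KO males (1.52 to 8.23%) and 0 to 1 for SP-A2 females (0 to 6.97%) and for co-ex females (0 to 4.48%). It gave 0 to 1 for the difference in response of SP-A2 and co-ex in males and in females, and for levels after FA of co-ex males against co-ex females, SP-A2 males or KO males and of SP-A2 females against co-ex or KO females, and after O3 of SP-A2 against KO males. In the fits of these comparisons that called a member, 0.353 to 17.2% of all miRNAs were called. DESeq2 called 1 member between SP-A2 males and females after FA (4.62% of all miRNAs), and 0 were called with edgeR. The cause of these changes was not tested.

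The replicate numbers did not pair the mice, since deviations of same-numbered mice correlated between -0.138 and 0.271. With the replicate block, 1 member was called in co-ex females (1.72% of all miRNAs), and the 3 calls over all tables were kept (48 miRNAs called in all).

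Depth limits the low members. In the smallest library, with 137965 reads, 3 reads were 21.7 CPM. Without mice at 0 for over 20 shared miRNAs, the SE of miR-34a-5p was 0.46 against 0.78, and that of miR-34c-5p 0.90 against 0.86. The small change of miR-449a-5p was -0.17 with a pseudocount of 0.1 and 0.19 with one of 10, and was not called under either.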
